A study of Homo sapiens with 4 samples.

Results

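Nascent RNA of Karpas 299 cells held on Chinese hamster ovary (CHO) cells was compared with nascent RNA of cells labelled as the same line and kept with the drug solvent DMSO. Karpas 299 is an established human T cell lymphoma line, of the ALK-positive anaplastic large cell type, and its cells carry the receptor CD30. The DMSO library is the solvent control of a drug experiment, and its cells received DMSO for 3 h. The CHO library is the control of a receptor experiment, in which the lymphoma cells spent 3 h on an adherent CHO layer without the CD30 ligand and were then pipetted off gently. Karpas 299 was grown in RPMI medium and CHO cells in F-12, and the sources used here do not give the medium of the joint culture. Both cultures took up bromouridine during the last 30 min. The Bru-seq assay captures this labelled RNA with an antibody, so its reads come mostly from RNA made during the labelling. The receptor on the lymphoma cells had no added ligand in either library, and the drug SM-164, an antagonist of inhibitor of apoptosis (IAP) proteins, was in neither. Contact with CHO cells, the collection step, the solvent, any difference between cell stocks and the experiment itself differ together between these 2 libraries and cannot be told apart. Each condition has 1 library, so the differences have no replicate check and carry no p-value.

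The comparison covers 8081 of the 22798 gene symbols that were counted on their own strand. A gene entered with 300 or more counted bases and an RPKM, the reads per kilobase scaled to a common library size, that averaged 0.5 or more over both libraries. Of the others, 1611 had too few counted bases and 13106 were below the RPKM minimum. Among the genes that entered, 320 reached an RPKM of 0.5 in CHO alone, and slightly fewer did so in DMSO alone. Differences are log2 ratios of CHO to DMSO after adding 0.25 to each RPKM. Differences of low genes come out too small on this scale. A gene was called at 2-fold or more. Folds are ratios of the estimated reads per library total. Their 95% intervals (exact, conditional on the sum of reads) cover counting error only: without molecular identifiers, reads copied by PCR do not stand for independent molecules.

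Several kinds of transcripts give nascent RNA profiles a known structure. Replication-dependent histone genes are short, lack introns, are transcribed mainly in S phase and make messages without a poly(A) tail. Immediate-early genes such as EGR1 are switched on within minutes by growth factors or stress, and heat shock genes by unfolded protein. CD30 is a member of the tumour necrosis factor receptor family whose signalling to NF-kB runs through TRAF adaptors and the cellular IAP proteins.

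The library totals were 31030478 reads for DMSO and 45885631 for CHO, and 26217590 and 45535365 for the other libraries of the series, SM-164 and CD30L+ CHO. Genes counted on their own strand took 78.46% of the DMSO reads and 78.44% of the CHO reads. Of 15 markers of the lymphoma, 12 in DMSO and 13 in CHO had an RPKM of at least 0.5. Of all 22798 gene symbols, 7977 in DMSO and 8009 in CHO reached it with at least 300 counted bases. ALK itself was below that level in both libraries, with an RPKM of 0.098 in DMSO and 0.137 in CHO. HGF reached it in CHO alone. The hamster cells were looked for with 28 markers of stromal and fibroblast-like cells. Of these, 24 were lower and 2 higher in CHO than in DMSO, 2 were at 0 in both, and their summed RPKM was 5.44 in DMSO and 4.50 in CHO. FBN1, a fibrillin of the extracellular matrix, made up most of the CHO sum; without it the sums were 3.54 and 1.82. The collagen gene COL1A1 had an RPKM of 0.0761 in DMSO and 0.0150 in CHO, while DCN and POSTN were at 0 in both. Epithelial markers summed to 0.945 in DMSO and 0.739 in CHO, and markers of B, myeloid and NK cells to 5.55 and 5.14. How many reads of hamster RNA align to the human genome was not tested. In bulk RNA, fewer cells of a type and less RNA per cell cannot be told apart.

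In CHO, 71 genes were at least 2-fold higher (0.879% of those tested) and 365 at least 2-fold lower (4.52%), 436 in all (5.4%), and 16.3% of the called genes were higher. Over all genes the log2 ratio had a median of 0.06, with quartiles of -0.23 and 0.29. The lower genes were mostly short. The genes were split into deciles by counted bases. In the shortest decile (311 to 3552 bases) the median was -0.54, and 238 of the 365 lower genes lay there. In the next decile (3554 to 7164 bases) the median was -0.21 with 72 lower genes, and from 11873 bases upward the medians of the length groups ran from 0.05 to 0.20. Histone genes made up 55 of the lower genes; without them the shortest decile still had a median of -0.49, with 185 of 755 genes lower. Among its abundant genes, those in the top decile by RPKM in the other 2 libraries, the median was -0.86 and 65 of 144 were lower. Genes of length deciles 6 to 10 in the same RPKM decile had a median of 0.03, with 3 of 246 lower. The 2 groups are not matched in abundance: their RPKM in those libraries ran up to 6111 in the short genes and 64 in the long ones. Among genes of at least 10000 counted bases the calls were balanced, with 49 higher (0.823%) and 38 lower (0.638%) of 5953. After the running median over length was subtracted, 137 genes were higher and 232 lower, and the share of higher genes was 37.1%. The part of gene length in the calls of single short genes was not tested further. In the pair that shares the DMSO library, SM-164 against DMSO, the shortest decile had a median of -0.27, and in the pair that shares the CHO library, CD30L+ CHO against CHO, -0.32.

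**Figure D1:**
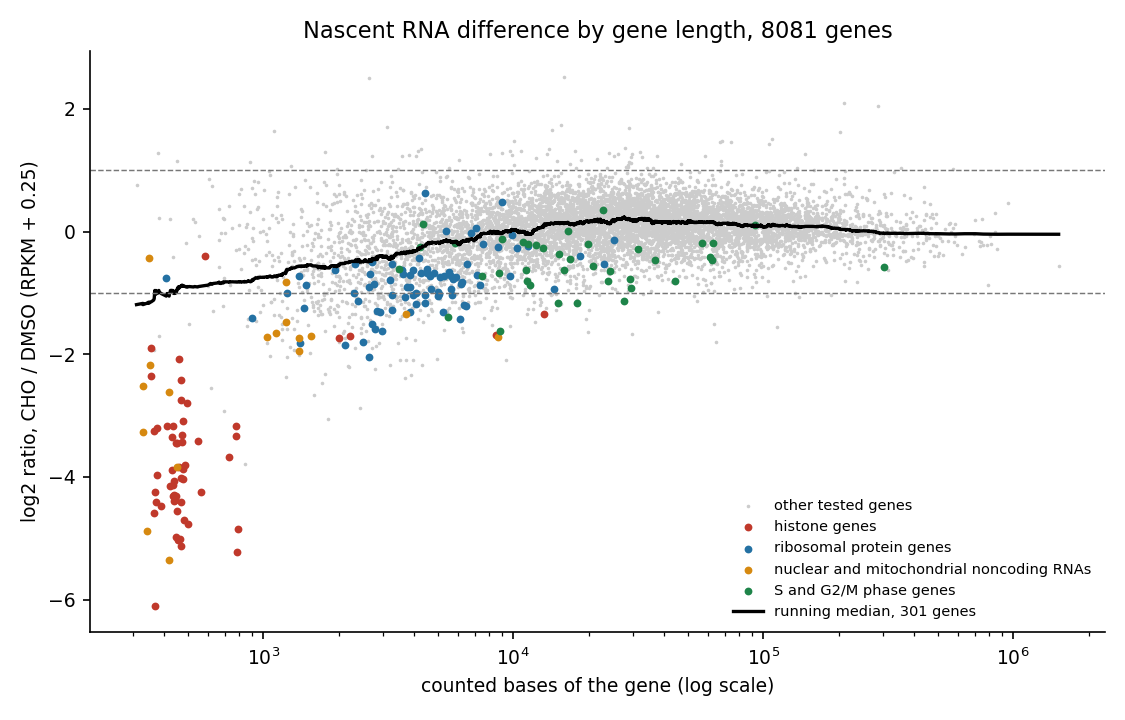
The log2 ratio of CHO to DMSO (vertical axis) is plotted against the counted bases of each gene on a log scale for 8081 genes; coloured points are gene lists, the black line is the running median, and dashed lines mark 2-fold. Histone genes form a separate group at the lower left, with a median of -3.88, and the running median lies below 0 for short genes.

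Histone genes had the lowest median of the 37 lists with tested members. Of 70 replication-dependent histone genes with an entry, 56 were tested, 55 were at least 2-fold lower in CHO and all 56 were below 0 (43.8% of all genes were). Their median log2 ratio was -3.88, and -2.94 after the length trend was subtracted. On the scale of reads, with the 1 gene at 0 reads in CHO set to a floor of 3 reads, the median histone gene was 19.98-fold lower. All 5 classes took part: the medians were -3.68 for 5 linker H1 genes, -4.13 for 13 H2A genes, -3.88 for 17 H2B genes, -3.37 for 10 H3 genes and -3.97 for 11 H4 genes. Most of them, 48 of the 56, lie in the histone clusters of chromosome 6. Together histone genes held 0.0917% of the DMSO library and 0.00825% of the CHO library. Shared reads of near-identical histone copies may be split between genes or lost, which makes single genes less certain than the group.

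HIST1H1E encodes a linker histone that binds between nucleosomes (chr6:26156559-26157343, hg19, plus strand). Its RPKM was 88.8 in DMSO, 48.1 in SM-164, 2.14 in CHO and 1.13 in CD30L+ CHO. Both libraries of the receptor experiment were low, and the CHO level was 0.0241 times the DMSO level (95% interval 0.0189 to 0.0302). HIST1H4I, an H4 gene at chr6:27107088-27107457, had the lowest log2 ratio of all genes, -6.10, with an RPKM of 33.4 in DMSO, 15.2 in SM-164, 0.240 in CHO and 0.0594 in CD30L+ CHO. HIST2H3D, an H3 gene on chromosome 1, had 112 reads in DMSO and 0 in CHO, which makes it at least 55.2-fold lower against a floor of 3 reads per library. HIST1H1C, a linker histone gene chosen after its values were seen, had the highest RPKM of the tested histone genes in DMSO, 130.2, against 9.95 in CHO. The smallest differences were those of HIST2H2BC, at -0.40 (also chosen afterwards), and HIST1H2BD, at -1.34. HIST1H2BD is counted over 13228 bases and so over much sequence outside its short coding part.

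Genes of DNA replication were also lower, but far less so than histone genes. Of 39 tested genes of S phase and of G2 and mitosis, 35 were below 0 (43.8% of all genes were). At least 2-fold lower were 5 (4.52% of all genes were), and the median of the 39 genes was -0.47. The 21 replication and S phase genes had a median of -0.64 and held all 5 calls, and the 18 genes of G2 and mitosis had a median of -0.21. RRM2, the small subunit of the ribonucleotide reductase that makes deoxyribonucleotides, had an RPKM of 13.06 in DMSO, 12.996 in SM-164, 4.08 in CHO and 3.60 in CD30L+ CHO. Its CHO level was 0.313 times the DMSO level (0.295 to 0.331), and the pairs of libraries did not overlap. The replication licensing factor CDT1 had a log2 ratio of -1.40, the cyclin CCNE2 -1.17 and the helicase subunit MCM4 -1.16. CDK1, the kinase that drives entry into mitosis (chosen after its values were seen), was equal within counting error, at 1.00 times the DMSO level (0.957 to 1.05).

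Noncoding RNAs of the nucleus were lower as well. In a list of nuclear and mitochondrial noncoding RNAs, 17 of 38 were tested, 15 were at least 2-fold lower and all 17 were below 0. The 17 include 7 MTRNR2L genes and the long RNA MALAT1, so the counts do not describe short nuclear RNAs alone. Of the untested members 18 had too few counted bases and 3 were below the RPKM minimum. Of all tested genes 4.52% were lower and 43.8% below 0, and in the shortest decile 238 of 809 were lower. The median of the list was -1.74, and -1.175 after the length trend was subtracted. RPPH1, the RNA subunit of ribonuclease P that trims transfer RNA precursors (chr14:20811230-20811570, minus strand), had an RPKM of 1033 in DMSO, 860.2 in SM-164, 34.8 in CHO and 23.6 in CD30L+ CHO. The CHO level of RPPH1 was 0.0337 times the DMSO level (0.0309 to 0.0368), with both receptor libraries far below both drug libraries. SCARNA2, a guide RNA of Cajal bodies, was at 65.2, 46.2, 1.35 and 0.0523 in the same order of libraries. TERC, the template RNA of telomerase, was at 12.9, 10.8, 0.677 and 0.0487. Of 6 tested SCARNA genes, 5 were lower; the sixth, SCARNA9L, was at -0.43. The long nuclear RNA MALAT1 (chosen after its values were seen) took 1.03% of the DMSO reads and 0.312% of the CHO reads, and its log2 ratio was -1.72. Of 7 MTRNR2L genes, which are nuclear copies of the mitochondrial ribosomal RNA and probably share its reads, 6 were lower, and together they took 1.89% of the DMSO reads and 0.619% of the CHO reads.

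Genes of cytosolic ribosomal proteins were mostly below 0. Abundant genes of the shortest decile without histones had a median of -0.86, with 65 of 144 lower. That group holds short ribosomal protein genes such as RPL8, so its median is not independent of theirs. Of 82 ribosomal protein genes tested, 29 were at least 2-fold lower, none higher and 78 below 0. Their median was -0.84 (-0.57 after the length trend was subtracted). Over all tested genes 4.52% were lower, 0.879% higher and 43.8% below 0. RPL8, a protein of the large subunit, had an RPKM of 36.2 in DMSO, 24.99 in SM-164, 8.63 in CHO and 4.79 in CD30L+ CHO. RPS15 was at -1.85, RPL36 and RPS2 at -1.81, and the highest log2 ratio in the list was that of RPS18, 0.62, which was chosen after its values were seen. Reads of ribosomal protein genes may be shared with their processed pseudogenes. Ribosomal proteins of mitochondria and subunits of the respiratory chain differed little as a list. Of these, 11 of 157 were lower (4.52% of all tested genes were). The median was -0.05, which became 0.05 with the length trend subtracted. MRPL41, at -2.93, was the lowest of them, on 41 reads in DMSO and 1 in CHO.

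Of the glycolysis and actin lists, 8 genes were at least 2-fold lower, beside 4.52% of all tested genes lower and 0.879% higher. Most of those named are short and abundant, with 2896 counted bases in ACTG1, 3223 in ALDOA, 3454 in ACTB and 3880 in GAPDH. Abundant genes of the shortest decile had a median of -0.86 without histone genes. That group includes ACTG1, ALDOA and ACTB themselves, so its median is not independent of them. GAPDH, which oxidises glyceraldehyde phosphate, had an RPKM of 62.9 in DMSO, 44.3 in SM-164, 12.3 in CHO and 7.52 in CD30L+ CHO, so CHO was at 0.196 times DMSO (0.186 to 0.205). ALDOA was at -2.17 and TPI1 at -2.09. These were the 3 lower genes among 24 of the hypoxia, glycolysis and glucose sensing list, whose median was -0.32. TXNIP, which restrains glucose uptake and follows glucose supply, was the 1 higher gene, with an RPKM of 5.04 in DMSO, 3.96 in SM-164, 12.9 in CHO and 6.47 in CD30L+ CHO. ACTB, the cytoplasmic beta-actin, was at 169.6, 115, 47.7 and 36.9 in the same order. ACTG1 was at -1.81, the actin-severing cofilin CFL1 at -1.42 and the calponin CNN2 at -1.10. With PFN1, at -1.03 and chosen after its values were seen, they were the 5 lower of 20 tested actin and serum response factor genes, whose median was -0.37. ACTN1, the actin crosslinker (chosen afterwards), lay at the other end with 0.99.

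**Figure D2:**
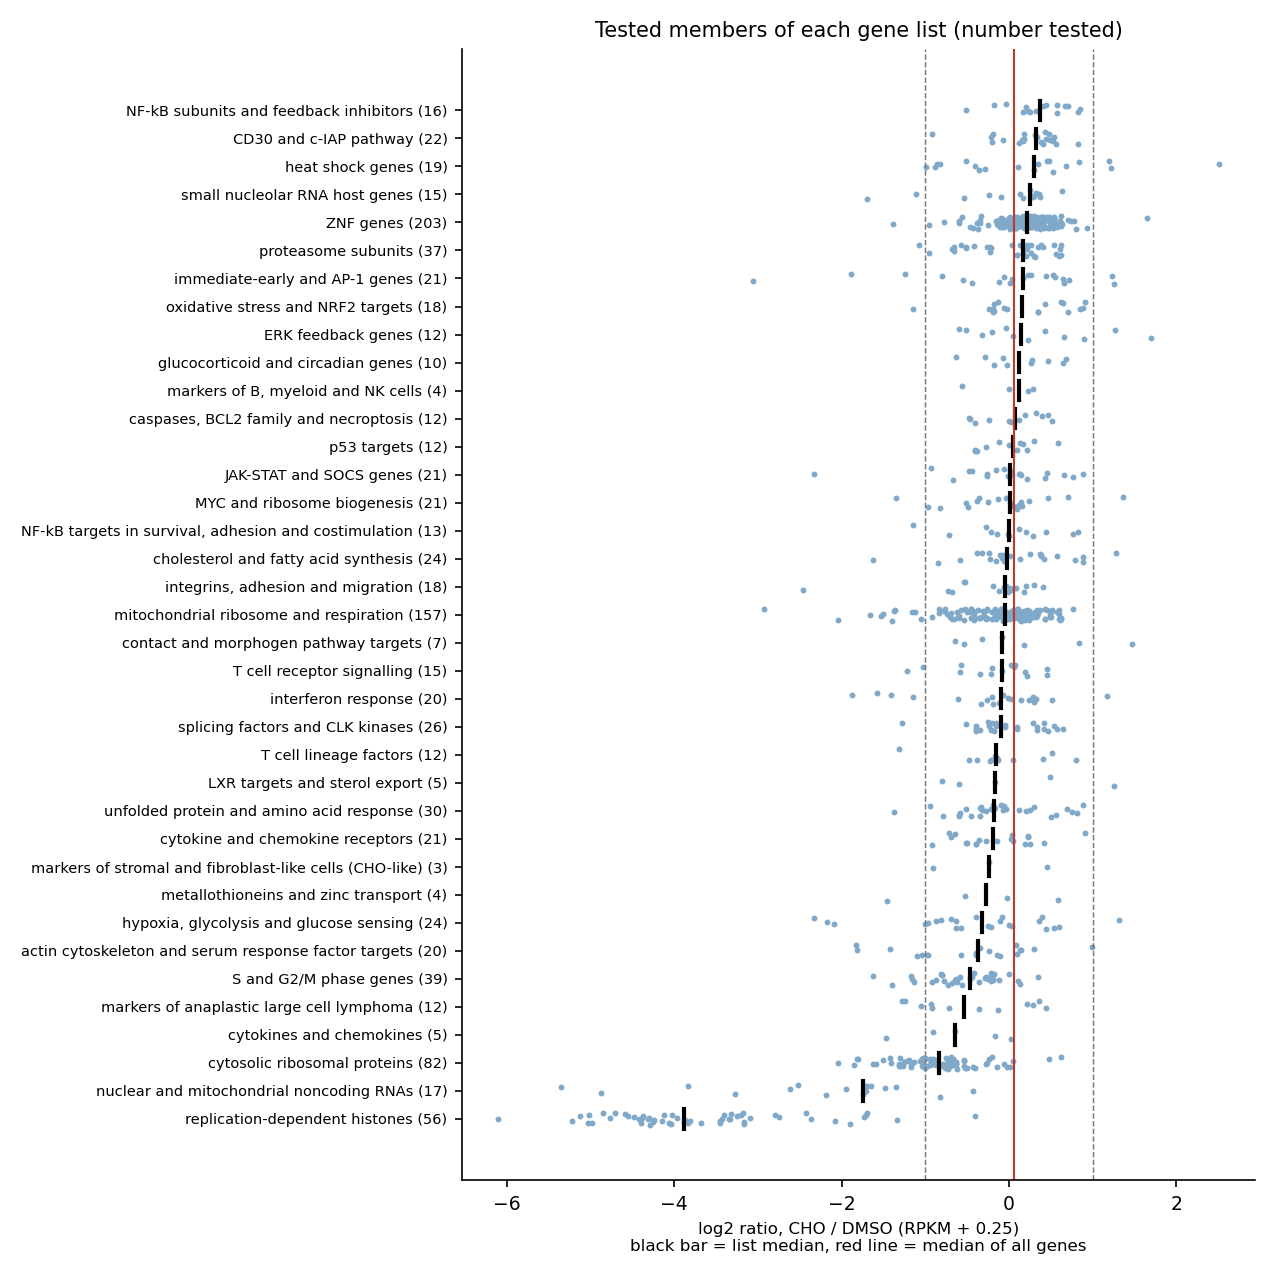
Each row is a gene list with the number of tested members, each point a member's log2 ratio of CHO to DMSO, the black bar the list median, the red line the median of all genes and the dashed lines 2-fold. The histone, noncoding RNA and ribosomal protein lists lie lowest, with medians of -3.88, -1.74 and -0.84, and the NF-kB feedback list highest, with 0.37.

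Other called genes in the shortest decile came from several lists. They were named because they were at least 2-fold lower, and 238 of the 809 genes in this decile were. JUNB, the AP-1 subunit that is known for its high level in this lymphoma (chr19:12902310-12904125, plus strand), had an RPKM of 22.2 in DMSO, 22.3 in SM-164, 2.45 in CHO and 0.974 in CD30L+ CHO. The drug libraries were alike and both receptor libraries low; CHO was at 0.111 times DMSO (0.0949 to 0.128). SOCS1, the feedback inhibitor of JAK kinases, was at 5.15, 4.29, 0.826 and 0.477 in the same order, and was the 1 lower gene of 21 in the JAK-STAT list (median 0.02, or -0.06 with TMM scaling). CORO1A, a coronin of leukocyte migration, was at -2.46 and was the 1 lower gene of 18 integrin and migration genes. The interferon-induced membrane proteins IFITM1, IFITM3 and IFITM2, which share much sequence, were at -1.88, -1.58 and -1.41. With ISG15, a ubiquitin-like protein at -1.14 on 28 and 12 reads (chosen after its values were seen), they were the 4 lower of 20 interferon response genes, while the related OASL was higher, at 1.17. The median of that list was -0.09, and of all tested genes 4.52% were lower and 0.879% higher.

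Long genes could be lower too. TM6SF1, a membrane protein gene of 29788 counted bases, had an RPKM of 13.2 in DMSO, 12.1 in SM-164, 3.98 in CHO and 2.87 in CD30L+ CHO. BCHE, which encodes butyrylcholinesterase, was at 0.949, 0.751, 0.0945 and 0.0490, and its CHO level was 0.0996 times the DMSO level (0.0875 to 0.113). MYB, the transcription factor of immature and cycling blood cells, was at 11.6, 11.1, 4.54 and 5.22. FASN, the fatty acid synthase, had a log2 ratio of -1.63 and the giant scaffold gene AHNAK -1.55. UTS2D was at -1.50, BSG at -1.48, ARHGDIB at -1.43, and CD74, the invariant chain of MHC class II, at -1.34. In each of these 9 genes both receptor libraries lay below both drug libraries. TNFRSF8, which encodes CD30, was just inside the 2-fold limit: its RPKM was 9.59 in DMSO, 12.3 in SM-164, 4.97 in CHO and 5.10 in CD30L+ CHO, and CHO was at 0.518 times DMSO (0.508 to 0.528).

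The genes that were higher in CHO included immediate-early genes and phosphatases of the MAP kinase pathway. EGR1, a zinc finger factor of the immediate-early response, had an RPKM of 0.522 in DMSO, 0.389 in SM-164, 1.59 in CHO and 1.43 in CD30L+ CHO, a 3.04-fold difference between CHO and DMSO (2.30 to 4.07). DUSP1, a phosphatase that switches off MAP kinases, was at 2.13, 2.94, 7.49 and 10.7, which is 3.51-fold (3.02 to 4.10). DUSP5, a related phosphatase for ERK, was at 0.205, 0.262, 0.844 and 1.66. BTG2, an antiproliferative gene chosen after its values were seen, was 2.78-fold higher (2.24 to 3.49). In all 4 the receptor libraries lay above the drug libraries. The lists as wholes were mixed, beside 0.879% of all tested genes higher and 4.52% lower. Of 21 tested immediate-early and AP-1 genes, 2 were higher and 3 lower (JUNB, IER5L at -1.89 and BATF3 at -1.24), with a median of 0.17. Of 12 ERK feedback genes 2 were higher and none lower, with a median of 0.14. MYC was level, at 1.01 times DMSO (0.937 to 1.09), while its antagonist MXD1 was 2.94-fold higher (2.74 to 3.15).

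The promoters of 8 named genes were searched for 5 motifs. Those of EGR1, DUSP1 and the heat shock gene HSPA6 are shown because they are the 3 that hold a match; those of HSPH1, DNAJB4, HMGCS1, TXNIP and JUNB hold none of the 5. Each is the 250 bases before the annotated start in RefSeq, build GRCh38.p14, 5′ to 3′. Capitals mark exact matches, on either strand, to the AP-1 core TGANTCA, the CRE core TGACGTCA, the E-box CACGTG, the CArG box, which serum response factor binds, or a heat shock element, spelled GAA, any 2 bases, TTC, any 2 bases, GAA.
EGR1, chr5:138465229-138465478, plus strand: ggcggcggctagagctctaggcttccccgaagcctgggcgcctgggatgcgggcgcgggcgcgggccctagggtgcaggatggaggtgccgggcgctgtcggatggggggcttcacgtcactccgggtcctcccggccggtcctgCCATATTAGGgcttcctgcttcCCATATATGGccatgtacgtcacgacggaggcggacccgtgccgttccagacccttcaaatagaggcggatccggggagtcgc
DUSP1, chr5:172771196-172771445, minus strand: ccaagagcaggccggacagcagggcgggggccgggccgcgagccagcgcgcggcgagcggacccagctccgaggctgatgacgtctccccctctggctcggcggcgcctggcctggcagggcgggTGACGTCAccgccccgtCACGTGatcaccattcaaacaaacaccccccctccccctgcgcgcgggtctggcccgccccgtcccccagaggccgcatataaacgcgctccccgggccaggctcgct
HSPA6, chr1:161524290-161524539, plus strand: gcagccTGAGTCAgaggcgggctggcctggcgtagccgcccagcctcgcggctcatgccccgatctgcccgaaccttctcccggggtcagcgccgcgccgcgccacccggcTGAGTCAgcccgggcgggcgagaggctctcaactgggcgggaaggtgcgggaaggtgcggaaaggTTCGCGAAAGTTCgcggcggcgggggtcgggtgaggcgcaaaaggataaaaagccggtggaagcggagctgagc
The EGR1 window holds 2 CArG boxes, which 1.14% of all 27305 promoters in the table hold at least once. The DUSP1 window holds 1 CRE core (1.77% of all promoters) and 1 E-box (6.49%). The HSPA6 window holds 2 AP-1 cores (6.6%) and 1 heat shock element (0.439%), a motif added after the data were seen; the motifs do not overlap each other in these windows. The promoter table matched 47 of the 71 higher genes and 213 of the 365 lower genes by symbol. A CRE core stood in 3 of the 47 and 5 of the 213, against 3.3% of the 5844 matched promoters of all tested genes. An AP-1 core stood in 1 and 5 (3.7% of tested genes), an E-box in 2 and 16 (9.5%), a CArG box in 1 and 8 (0.958%), and a heat shock element in 1 and 2 (0.394%). A match is a description of the letters in this window and not a bound site.

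Of 19 tested heat shock genes 3 were at least 2-fold higher and none lower, against 0.879% and 4.52% of all tested genes. Above 0 were 11 and below 0 were 8, near the share of all tested genes above 0, 56.2%. HSPA6, the strictly inducible HSP70 of humans, had 1 read in DMSO and 150.9 in CHO, and its RPKM was 0.0122 in DMSO, 0.0719 in SM-164, 1.24 in CHO and 0.532 in CD30L+ CHO. The ratio of CHO to DMSO was 102 with a wide interval (18.1 to 4059.7), and reads may be shared with the near-identical HSPA7. HSPH1, an HSP110 that recharges HSP70, was at 1.29, 1.04, 3.35 and 3.23, a 2.60-fold difference (2.42 to 2.78). DNAJB4, a co-chaperone of HSP70, was 2.68-fold higher (2.37 to 3.03). The constitutive chaperones HSPA8 and HSP90AA1, chosen after their values were seen, lay at -0.99 and -0.88, short of 2-fold, and the list median was 0.30. The unfolded protein and amino acid response gave 1 call: of 30 genes 1 was lower (SHMT2, a mitochondrial serine enzyme, at -1.38), none was higher, and the median was -0.18. Among them DDIT3, a stress factor chosen afterwards, had a log2 ratio of 0.51 and the endoplasmic reticulum chaperone HSPA5 -0.35.

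Sterol genes gave single large differences in a list with no common direction. HMGCS1, which makes the precursor of mevalonate, had an RPKM of 8.45 in DMSO, 7.72 in SM-164, 20.8 in CHO and 26.6 in CD30L+ CHO, 2.46-fold higher in CHO (2.39 to 2.53). CYP51A1, a demethylase of cholesterol synthesis chosen after its values were seen, followed with 0.88. Of 24 tested cholesterol and fatty acid genes, HMGCS1 was the 1 higher and FASN the 1 lower, beside 0.879% and 4.52% of all tested genes. The median of the list was -0.02, which became 0.02 with the length trend subtracted. ABCA1, which exports cholesterol from the cell, was 3.31-fold higher (3.14 to 3.49), at an RPKM of 0.378 in DMSO and 1.25 in CHO.

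The largest log2 ratios above 0 belonged to genes of several kinds, most of them at a low RPKM in DMSO. THEMIS, a signalling adaptor of developing T cells counted over 210438 bases (chr6:128029339-128239776, minus strand), had an RPKM of 0.342 in DMSO, 0.333 in SM-164, 2.29 in CHO and 1.89 in CD30L+ CHO. CHO exceeded DMSO by 6.70-fold (6.42 to 7.003). SLAMF7, a receptor of lymphocytes, was at 0.170, 0.213, 1.14 and 4.02. ANXA5, the annexin that binds phosphatidylserine, was at 0.580, 0.633, 2.41 and 4.08. MYO18B, a myosin gene, was 8.63-fold higher (8.20 to 9.10), and PREX1, an activator of Rac GTPases, 4.83-fold (4.60 to 5.07). GCNT2, which branches glycans, was 5.48-fold higher and PTCH1, the Hedgehog receptor and target, 3.77-fold. The highest log2 ratios of all were those of the uncharacterised LOC728606, at 2.52, and of HSPA6, at 2.51. The other genes of the top 15 were ZNF622, TAS2R3, C2orf61, C7orf53 and ERO1LB, between 1.45 and 1.65.

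**Figure D3:**
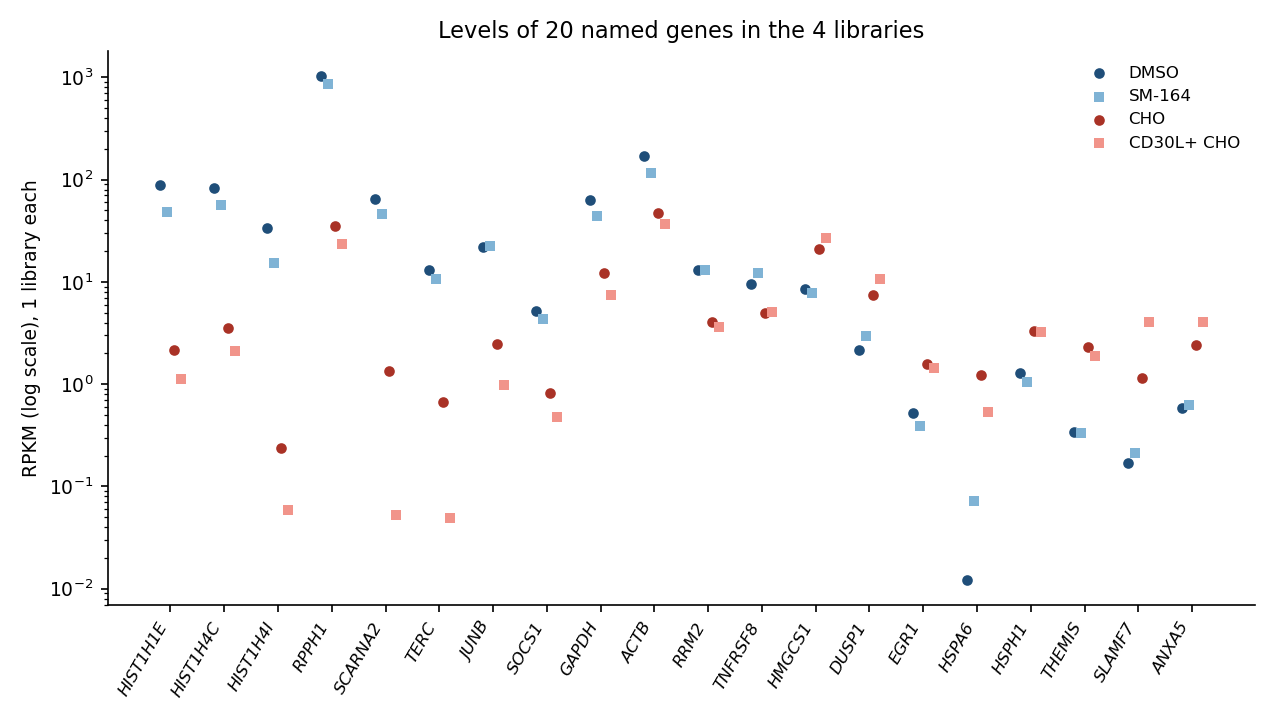
RPKM on a log axis of 20 named genes in the 4 libraries, 1 library per point; circles are DMSO and CHO, squares SM-164 and CD30L+ CHO. For HIST1H1E the DMSO point is at 88.8 and the CHO point at 2.14, and for THEMIS at 0.342 and 2.29; in all 20 genes both receptor libraries lie on the same side of both drug libraries.

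Pathways of CD30 and NF-kB showed small shifts with no 2-fold call. All 22 tested members of the CD30 and c-IAP list stayed within 2-fold, with a median of 0.32 and 5 members below 0. So did all 16 NF-kB subunits and feedback inhibitors, with a median of 0.37. Of all tested genes 5.4% were called in either direction and 43.8% were below 0. An absence of calls in lists this small does not set them apart. NFKBIA, the inhibitor that NF-kB itself induces, had an RPKM of 4.19 in DMSO and 6.34 in CHO, 1.51-fold (1.35 to 1.70). For comparison it was 12.3 in SM-164 and 38.6 in CD30L+ CHO, the libraries with the drug or the ligand. TRAF1, an adaptor of CD30, was 1.88-fold higher (1.77 to 2.00), BIRC2 (c-IAP1) 1.35-fold and TNFAIP3 (A20) 1.20-fold. BIRC3 (c-IAP2) was at 0.854 times DMSO (0.820 to 0.889). Among 13 tested NF-kB target genes of survival, adhesion and costimulation none was higher and GADD45B, at -1.15, was the 1 lower gene. Their median was 0.00, and -0.10 with TMM scaling. Over all tested genes 0.879% were higher and 4.52% lower.

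Among the lists of cytokines, their receptors and T cell genes few members were called, all of them lower. Over all tested genes 4.52% were lower and 0.879% higher. IL22, a cytokine that this line makes, was at an RPKM of 20.4 in DMSO and 20.8 in CHO, 1.02 times (0.976 to 1.07). IL32 was at -1.47, the 1 lower gene of 5 tested cytokines, whose median was -0.64 (-0.30 with the length trend subtracted, -0.32 with 1 RPKM added and 0.00 with no expression minimum). None of 21 cytokine and chemokine receptors was called, and their median was -0.19. Of 15 T cell receptor genes 2 were lower, the kinase ZAP70 (-1.22) and the receptor chain CD3D (-1.03), and of 12 T cell lineage factors MYB alone was. Of the 12 tested lymphoma markers 3 were lower, namely BATF3 and, chosen after their values were seen, PRF1, which encodes perforin, at -1.28 and the granzyme GZMB at -1.06. The summed RPKM of the 15 lymphoma markers was 100.5 in DMSO, 115 in SM-164, 66.9 in CHO and 99.8 in CD30L+ CHO.

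The remaining lists had few calls, as did all tested genes, of which 0.879% were higher and 4.52% lower. Proteasome subunits (1 of 37 lower, PSMB10), ZNF genes (1 higher and 1 lower of 203), splicing factors (1 of 26 lower, HNRNPA1 at -1.28) and small nucleolar RNA host genes (2 of 15 lower, SNHG9 and SNHG6) had medians of 0.17, 0.22, -0.10 and 0.25. Oxidative stress targets (1 of 18 lower, ABCC1) had a median of 0.16 and genes of MYC and ribosome biogenesis (MXD1 higher and RRS1 lower, of 21) of 0.02 (-0.09 with TMM scaling). No gene was called among 12 p53 targets, 12 caspase, BCL2 and necroptosis genes, and 10 glucocorticoid and circadian genes, with medians of 0.05, 0.07 and 0.12 (the first 2 were -0.05 and -0.02 with TMM scaling). Of 4 metallothionein and zinc genes MT2A was lower, with a list median of -0.27 that became 0.19 with the length trend subtracted, and of 7 contact and morphogen targets PTCH1 alone was called. The LXR list had ABCA1 as its 1 call of 5.

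The series holds a second pair of libraries, 1 from each experiment, that shares no library with CHO and DMSO: CD30L+ CHO, from lymphoma cells on CHO cells that carry the CD30 ligand, against SM-164, both after 3 h. In it 136 of 7593 tested genes were at least 2-fold higher (1.79%) and 438 lower (5.77%). Called in both pairs were 48 higher genes, 67.6% of the 71 and 35.3% of the 136, and 265 lower genes, 72.6% of the 365 and 60.5% of the 438. Of the 71 higher genes 70 had a positive log2 ratio in the second pair, with a median of 1.21 against 1.24 in the first, and all 365 lower genes had a negative one, with a median of -1.48 against -1.35. Histone genes had a median of -3.89 there, noncoding RNAs -1.39 and ribosomal protein genes -0.65. Within each experiment far fewer genes were called: 0.254% in SM-164 against DMSO and 1.71% in CD30L+ CHO against CHO, each of which shares a library with the comparison described here. The second pair repeats the contrast between experiments and not the contact with CHO cells on its own. Genes of the shortest decile had a median of -0.57 in it, against -0.54 in the first pair. The share of all tested genes with the same sign in both pairs is not given here.

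**Figure D4:**
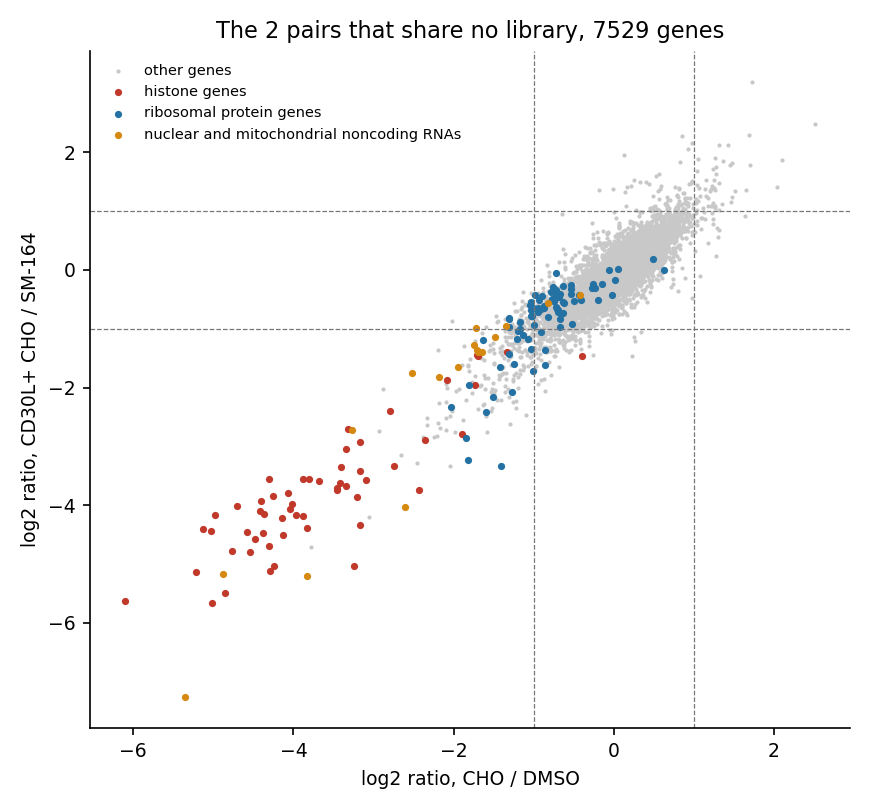
The log2 ratio of CD30L+ CHO to SM-164 (vertical) is plotted against that of CHO to DMSO (horizontal) for 7529 genes tested in both pairs, with dashed lines at 2-fold. Histone genes lie at the lower left in both, with medians of -3.88 and -3.89.

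Some called genes differed in the second pair. PLEKHF1, an endosome protein gene, was the 1 higher gene with the opposite sign there: its RPKM was 0.948 in DMSO, 2.28 in CHO, 1.13 in SM-164 and 1.04 in CD30L+ CHO. LOC148189, PFN2 and RNF5 were higher in CHO by at least 2-fold and at 0.33, 0.46 and 0.23 in the second pair; RNF5 rests on 3.4 and 18.5 reads. HLA-DQA1, an MHC class II chain, was at -1.14 in the first pair and -0.37 in the second. These genes were chosen after their values were seen. Genes with a larger log2 ratio in the second pair included SLAMF7 (1.73 and 3.20), PPP4R4 (1.42 and 2.12) and ANXA5 (1.68 and 2.29).

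The log2 ratios also differed between chromosomes, described here after the data were seen for the 5953 genes of at least 10000 counted bases, whose median was 0.12. Whether both experiments used the same stock of the line is not stated in the labels, so a difference between stocks and the culture conditions cannot be told apart in these values or in the calls. Chromosome 14 had a median of 0.38, with 196 of 224 genes above 0, and chromosome 20 a median of 0.38, with 163 of 189. In the second pair these medians were 0.35 and 0.25, against 0.06 for all long genes. In SM-164 against DMSO they were -0.02 and -0.01, and in CD30L+ CHO against CHO -0.06 and -0.14. Chromosome 18 changed direction along its length: the bins from 0 to 10 and 10 to 20 Mb had medians of 0.59 and 0.49, with 16 of 18 and 19 of 19 genes above 0. The 4 bins from 30 to 70 Mb had medians between -0.36 and -0.21, and the bin from 70 to 80 Mb 0.21. The first 10 Mb of chromosome 5 had a median of 0.58 and the next 10 Mb 0.68, while the first 10 Mb of chromosome 12 had -0.39, with 8 of 35 genes above 0. On chromosome 3 the bins from 170 to 180 and 190 to 200 Mb were at -0.29. Of 255 bins of 10 Mb with at least 8 genes, 14 lay at least 0.3 above the median of long genes and 11 at least 0.3 below it. The bin medians ran from -0.39 to 0.68 in CHO against DMSO and from -0.50 to 0.58 in the second pair. Within the experiments they ran from -0.13 to 0.18 in SM-164 against DMSO and from -0.51 to 0.09 in CD30L+ CHO against CHO. Of the 71 higher genes (0.879% of all tested), 11 were on chromosome 1 (1.25% of its tested genes), 10 on chromosome 5 (2.46%), 8 on chromosome 14 (2.73%), 4 on chromosome 20 (1.63%) and 3 on chromosome 18 (2.4%). GPR65, chosen after its values were seen, and PPP4R4, both on chromosome 14, had log2 ratios of 1.32 and 1.42, and ZNF622, on the short end of chromosome 5, 1.65.

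**Figure D5:**
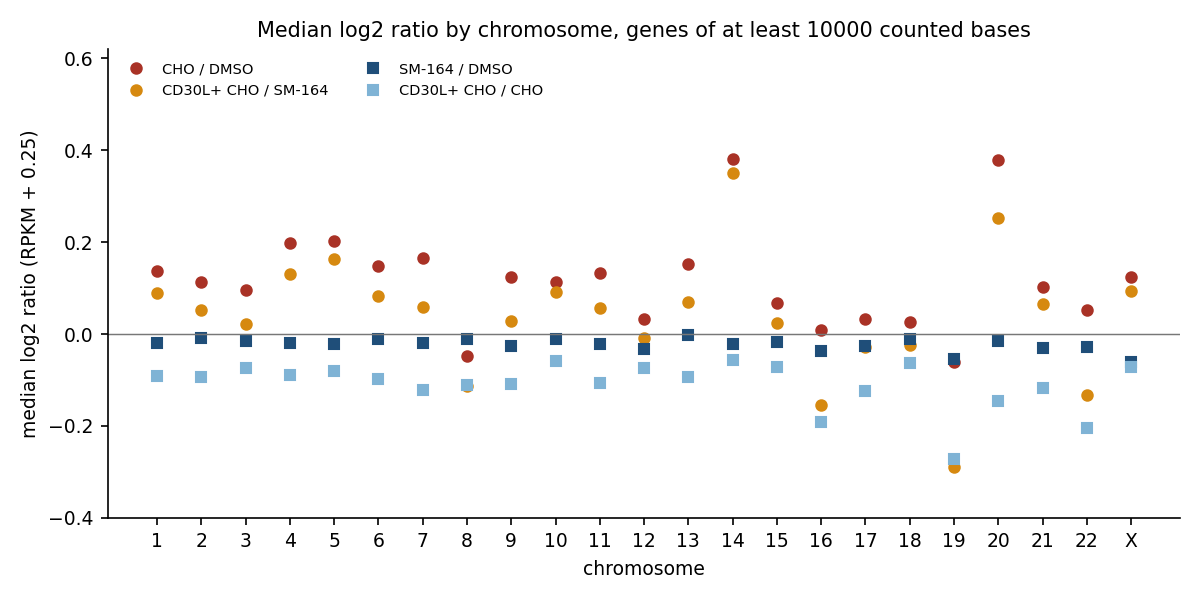
Median log2 ratio of genes of at least 10000 counted bases on each chromosome, for the 2 pairs across experiments (circles) and the 2 within them (squares). Chromosomes 14 and 20 stand highest in both pairs across experiments, at 0.38 in CHO to DMSO, and near the other chromosomes in SM-164 to DMSO, at -0.02 and -0.01.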

How the data were processed

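Bru-seq RNA of 1 library per condition was analysed, so no comparison has replicates. The submitters' processing notes name CASAVA 1.8.2, Bowtie 0.12.8, TopHat 1.4.1, bedtools 2.16.2 and hg19; their settings and the annotation are not given in the sources used here. The authors deposited, per gene and strand, estimated counts of reads over exons and introns, a signal that equals these counts per counted base, and RPKM, which equals the signal scaled to the library total. These units were identified from the values, since the tables have no headers. Per the labels' protocols, strand-specific reads apply only to certain samples, so overlapping and antisense partners of a gene may share its reads.

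From RPKM, log2 ratios were computed with 0.25 added, without a test. Estimated counts were rounded for the exact intervals and for TMM scaling in edgeR 4.0.16 (R 4.3.3). Python 3.11.15 ran pandas 2.3.3, numpy 2.4.6, matplotlib 3.10.9 and scipy 1.17.1. Where a symbol had several sense entries 1 was kept, which left out 186 entries. On simulated counts for CHO against DMSO (8081 genes), 40 of 50 genes made 3-fold lower and 50 of 50 made 3-fold higher were called, and 0 of 7881 unchanged genes. At 4-fold, 48 of 50 lower and 50 of 50 higher genes were called. The simulated counts varied by counting error alone, without the length trend, regional shifts or other variation between libraries. They therefore give no rate of false calls for the measured genes.

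Genes were named by rule: the 15 highest and lowest log2 ratios, the 10 highest and lowest among genes of at least 10000 counted bases, up to 4 called members per list, the 10 with the largest ratio in common to both pairs in each direction, and 8 CD30 or NF-kB genes whatever their values; this gave 100 genes, and others are said to be chosen afterwards. Members and lists were chosen with earlier results of these data known. The 34 gene lists and 4 marker lists hold 1714 genes. Hamster reads were not analysed here.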

Additional observations from a re-analysis of the deposited data

How the results depend on the processing

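The 71 higher genes became 111 with 0.1 RPKM added, 18 with 1 RPKM added, 46 at a mean RPKM of at least 1, 571 at a 1.5-fold threshold and 137 after the length trend was subtracted. The 365 lower genes became 209 with 1 RPKM added, 867 at 1.5-fold and 232 after the length trend was subtracted. Under the other alternatives the counts stayed within 1.5 times, at 55 to 104 higher and 292 to 441 lower genes. The share of higher genes among the calls, 16.3%, was 37.1% after the length trend was subtracted and 39.7% at 1.5-fold. After that subtraction 58 of the 71 and 206 of the 365 genes were still called. Of 37 list medians 20 moved by more than 0.1 after that subtraction, 15 with no expression minimum and 13 with TMM scaling. TMM scaling moved the median of all genes by -0.09. Of the 100 named genes none changed direction. With 1 RPKM added 32 were no longer called. After the length trend was subtracted 13 were no longer called and 1 became called. Why these values moved was not tested. No paired analysis was possible because each condition has 1 library. A count of 0 reads allows up to 3 reads, or 0.0967 RPM in DMSO and 0.0654 RPM in CHO.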

Other observations

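Genes below the RPKM minimum were compared by their reads alone, 13042 of them outside the Y chromosome. In 193 of them the lower bound of the ratio of CHO to DMSO was above 3, and in all 193 the second pair, CD30L+ CHO against SM-164, had the same direction. In 101 DMSO exceeded CHO by more than 3-fold at the nearer bound, and 98 had the same direction in the second pair. That pair carries the same contrast between experiments. The share of all 13042 genes with the same direction in both pairs is not given here. The examples here were chosen after their values were seen. HGF, the hepatocyte growth factor, had an RPKM of 0.0289 in DMSO, 0.0415 in SM-164, 0.592 in CHO and 1.97 in CD30L+ CHO, and CHO was 20.5-fold above DMSO (15.9 to 26.9). PELI2, a ubiquitin ligase of innate immune signalling, was 10.1-fold higher (9.22 to 11.2). BDNF, a neurotrophin, was 7.46-fold higher (6.32 to 8.86) and PIK3CG, a phosphoinositide kinase of leukocytes, 12.5-fold (9.04 to 17.7). On the lower side SOX5, a transcription factor, was at 0.374 in DMSO and 0.0340 in CHO, and DACH1, another, at 0.117 and 0.00558.

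Several genes typical of fibroblasts, chosen after their values were seen, had more reads in DMSO, the library without CHO cells. Of the 28 stromal markers 24 were lower and 2 higher in CHO than in DMSO. The higher ones were FBN1, at 1.42-fold, and IGFBP7, at 2.28-fold. THBS1, a matrix glycoprotein, had an RPKM of 0.908 in DMSO, 0.586 in SM-164, 0.0505 in CHO and 0.0737 in CD30L+ CHO, and CHO was at 0.0556 times DMSO (0.0389 to 0.0775). CALD1, which binds actin, had 461 reads in DMSO and 12 in CHO, and TIMP3, an inhibitor of matrix proteases, 165 and 6. DPT and MMP1 had 44 and 36 reads in DMSO and 0 in CHO. Both drug libraries lay above both receptor libraries in THBS1, CALD1 and TIMP3. The origin of these reads was not tested.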
